A study of Homo sapiens with 12 samples.

Results

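The cell adhesion molecules followed here were 10 genes whose products hold leukocytes and epithelial cells to each other or to matrix, namely ICAM1, ICAM2, ICAM3, VCAM1, ALCAM, CD44, CD47, F11R, CEACAM1 and L1CAM. They were found by gene name among the probes of a whole-genome microarray, where they had 13 of 34127 probes, and all 10 were among the 18001 genes tested. The arrays held RNA of human proximal tubular cells (HPTC), the reabsorbing epithelium of the nephron, from 2 established lines named in the sample titles: HK-2, immortalised with papillomavirus genes, and RPTEC/TERT1, immortalised with telomerase. Cells of both lines were starved of serum and medium supplements for 24 h and then kept for 24 h without ligand (control), with interleukin-1β (IL-1β, 10 ng/mL), a pro-inflammatory cytokine, or with empagliflozin (Empa, 500 nM), an inhibitor of the glucose transporter SGLT2. No array held IL-1β and Empa together. Each of the 6 groups of line and treatment had 2 arrays, and each of the 4 slides carried the control, IL-1β and Empa arrays of 1 line and 1 replicate number. The study's methods describe the arrays as biological duplicates and its legends as independent experiments.

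Immunoglobulin-superfamily adhesion molecules such as the ICAMs and VCAM1 are counter-receptors for leukocyte integrins, and in tubular epithelium as in endothelium cytokines that act through NF-κB are known to raise ICAM1 and VCAM1. CD44 binds hyaluronan and osteopontin and appears on injured tubules, while CD47 is the "do not eat me" ligand of SIRPα on phagocytes. F11R (JAM-A), CEACAM1 and L1CAM act mainly between epithelial cells, at tight junctions or by homophilic binding.

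The promoters of ICAM1, VCAM1 and CD44 are shown because these 3 members had the highest IL-1β estimates of the 10. The VCAM1 estimate rests on slides where its signal was not clearly above background. On the other slides its log2 differences were -0.033 and 0.62. Each line gives the 250 bases before the RefSeq start site, plus strand, build GRCh38.p14, with matches to the NF-κB-like pattern GGNNTTTCC or its reverse complement GGAAANNCC in capitals. ICAM1 lies at chr19:10270870-10271119, VCAM1 at chr1:100719492-100719741 and CD44 at chr11:35138921-35139170.
ICAM1: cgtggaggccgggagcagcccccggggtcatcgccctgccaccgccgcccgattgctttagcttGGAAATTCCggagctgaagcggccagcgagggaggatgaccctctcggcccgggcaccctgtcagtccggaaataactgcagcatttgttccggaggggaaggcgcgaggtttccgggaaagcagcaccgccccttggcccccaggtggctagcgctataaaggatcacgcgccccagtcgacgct
VCAM1: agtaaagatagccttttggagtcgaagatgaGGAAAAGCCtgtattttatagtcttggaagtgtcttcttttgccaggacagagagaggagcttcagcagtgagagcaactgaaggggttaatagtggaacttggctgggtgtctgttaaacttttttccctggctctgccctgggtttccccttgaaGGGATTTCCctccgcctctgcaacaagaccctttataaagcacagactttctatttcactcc
CD44: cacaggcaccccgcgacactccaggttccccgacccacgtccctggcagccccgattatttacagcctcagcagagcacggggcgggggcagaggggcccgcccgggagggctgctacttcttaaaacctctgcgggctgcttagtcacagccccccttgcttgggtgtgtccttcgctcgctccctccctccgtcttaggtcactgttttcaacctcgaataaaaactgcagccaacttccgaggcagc
ICAM1 had 1 match, which began 186 bases before its start, and VCAM1 had 2, which began 219 and 62 bases before its start. The CD44 window had none. In windows of 300 bases (250 before to 50 after the start), on either strand, the pattern was found in 2198 of 35116 RefSeq promoters (6.26%). Counted by gene, 2 of the 8 members with a promoter entry had a match. These 8 members had 11 promoters, so the share of genes is not in the same unit as the share of promoters. ICAM2 and F11R had no entry. A match describes letters only.

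Array-wide measurements bear on the members. Per-array signal at the 75th percentile was 298 to 765 units, and 53.5 to 63.5% of probes were marked well above background, the scanner software's mark for a spot clearly brighter than its surroundings. Arrays did not sort by line label: over 12539 genes the HK-2 replicate 1 and RPTEC/TERT1 replicate 2 arrays correlated at r = 0.961 to 0.984 within a treatment and the RPTEC/TERT1 replicate 1 and HK-2 replicate 2 arrays at 0.973 to 0.982, while arrays of the same line label correlated at only 0.848 to 0.875. Line names below are therefore those of the labels, and values are listed slide by slide, always in the order HK-2 replicate 1, RPTEC/TERT1 replicate 2, RPTEC/TERT1 replicate 1, HK-2 replicate 2. As checks of cell type, 11 of 19 proximal tubule markers, LRP2 (megalin), AQP1 and SLC5A2 (SGLT2) among them, and 5 of 9 epithelial markers were well above background on all 12 arrays, whereas the proximal tubule genes HNF4A, SLC5A1 and SLC22A6 were on none and CUBN on 1. Of 12 leukocyte markers on the array, PTPRC (by 2 of its 5 probes), CD68 and ITGB2 were detected on 12 arrays, and ITGAL, CD163, CD48 and CD53 on none. The summed signal of the leukocyte markers was 0.941 to 3.44 times the 75th percentile on control arrays, 2.03 to 3.08 times with IL-1β and 0.805 to 2.83 times with Empa. Of 9 endothelial markers CDH5 was detected on 12 arrays and 6 on none. Of 9 fibroblast markers none was detected on 12 arrays, 6 were on some and 3 on none. COL1A1 was detected on 11 arrays and DCN on 8. LUM was detected on all arrays of the RPTEC/TERT1 replicate 1 and HK-2 replicate 2 slides and on no other. The summed fibroblast signal was 0.185 to 10.0 times the 75th percentile on control arrays, 0.215 to 11.9 times with IL-1β and 0.100 to 6.4 times with Empa. The part of these markers in the members' values was not tested. The arrays read RNA of whole cultures, so fewer cells that express a gene and less RNA per cell cannot be told apart.

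With IL-1β, CD44 was about 4-fold higher and was the 1 member of 10 that passed the test, against 10.0% of all genes tested (1806 of 18001), with 637 genes (3.54%) higher and 1169 (6.49%) lower. ICAM1 was higher on 4 of 4 slides by 1.43- to 13.9-fold and CD47 by 1.35- to 2.98-fold, but neither passed. The homophilic adhesion molecule L1CAM was lower on 4 of 4 slides and also missed the threshold. With Empa, 0 of 10 members passed in limma, against 0.00556% of all genes (1 of 18001), and L1CAM and CEACAM1 had the lowest unadjusted p (0.0107 and 0.0114, adjusted p = 0.361 for both). The test was limma with the slide as a term and Benjamini-Hochberg adjustment over all 18001 genes, called at an adjusted p below 0.05. Levels are log2 signals relative to the 75th percentile of the array, so 0 is that percentile, and differences are log2 differences from the control array of the same slide.

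**Figure D1:**
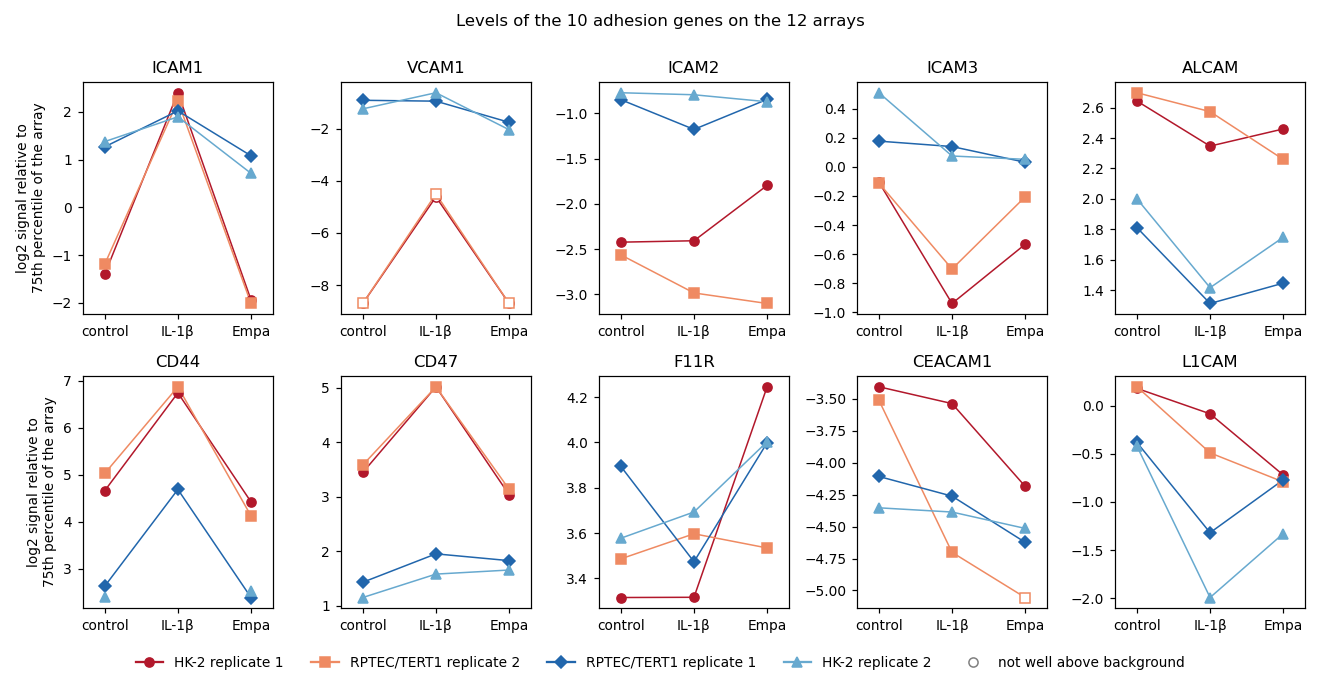
Log2 signal relative to the 75th percentile of the array (vertical axis, a separate scale in each panel) for the 10 genes under control, IL-1β and Empa (horizontal axis), with 1 line per slide and open symbols where the probe was not well above background. ICAM1 lines start apart in the control (-1.40 to 1.38) and meet with IL-1β (1.90 to 2.40), CD44 rises in parallel on the 3 slides with a value, and VCAM1 is well above background on 2 slides only.

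ICAM1, the main ligand of the leukocyte integrins LFA-1 and Mac-1, was the member whose IL-1β difference varied most between slides with measured values. Its control levels were -1.40, -1.19, 1.27 and 1.38. Its IL-1β levels were 2.40, 2.23, 2.02 and 1.90, so the 4 IL-1β arrays spanned 0.50 log2 units where the control arrays spanned 2.78. All 4 IL-1β arrays lay above all 4 control arrays, but the share of all genes separated in this way was not counted. On the HK-2 replicate 1 slide the ICAM1 signal was 136 units in the control and 2308 with IL-1β. On the RPTEC/TERT1 replicate 1 slide it was 969 and 1706. The differences were 3.80, 3.42, 0.75 and 0.52, which are 13.9-, 10.7-, 1.68- and 1.43-fold. The difference was larger on the 2 slides with low control levels than on the 2 with high ones.

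The limma estimate for ICAM1 was 2.12 ± 0.63 (SE, 12 arrays; adjusted p = 0.0687). Without the RPTEC/TERT1 IL-1β array of replicate 1 it was 2.64 (adjusted p = 0.0378) and without the HK-2 IL-1β array of replicate 2 it was 2.64 (adjusted p = 0.0425). ICAM1 also passed, with the estimate of all arrays, where only genes well above background on all 12 arrays were tested (adjusted p = 0.0337). The spots themselves were precise. The probe (hg19, chr19:10396298-10396358, plus strand) was printed in 10 spots per array, whose coefficient of variation was 3.2 to 12.8%. ICAM1 and CD44 are among the genes the study selected from these arrays for a rise with IL-1β and a fall with Empa, so their directions here are not independent evidence.

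**Figure D2:**
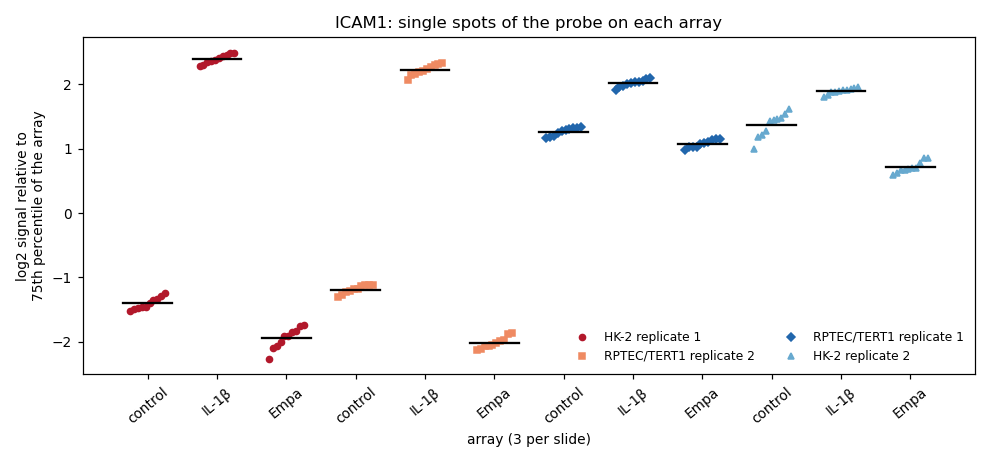
Each of the 10 ICAM1 spots on each of the 12 arrays (points; horizontal axis, arrays in slide order; vertical axis, log2 signal relative to the 75th percentile of the array) with a bar at their mean. Spots of 1 array lie close together, while control arrays of different slides lie up to 2.78 log2 units apart.

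VCAM1, the ligand of the integrin α4β1 on monocytes and lymphocytes, was measured on 2 of the 4 slides. Its probe read the end of the coding sequence (hg19, chr1:101203783-101203842, plus strand).
VCAM1 probe: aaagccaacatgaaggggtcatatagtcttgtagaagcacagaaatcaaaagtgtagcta
On the HK-2 replicate 1 and RPTEC/TERT1 replicate 2 slides no array was well above background, with 0.679 and -0.599 signal units in the control, 17.9 and 17.2 with IL-1β, and -1.95 and 0.469 with Empa. No fold is given there, although the IL-1β array was the brightest on both slides. On the RPTEC/TERT1 replicate 1 slide the levels were -0.90, -0.93 and -1.74 (control, IL-1β, Empa) and on the HK-2 replicate 2 slide -1.23, -0.61 and -2.03. Where VCAM1 was measured, the IL-1β differences were -0.033 and 0.62 and the Empa differences -0.85 and -0.80. The RPTEC/TERT1 difference of -0.033 was 0.049 after quantile normalization.

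The limma estimate for VCAM1 with IL-1β, 2.22 ± 0.71 (SE; adjusted p = 0.0852), rests on the 6 undetected arrays, of which the 4 control and Empa arrays sat at the floor of 1 signal unit and the 2 IL-1β arrays at 17.9 and 17.2 units. With a floor of 5 units it was 1.06 and with the values normalized by the authors 0.28. Without the RPTEC/TERT1 IL-1β array of replicate 1 it was 2.90 (adjusted p = 0.0318).

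The other leukocyte ligands were lower or nearly level with IL-1β. ICAM2, an ICAM typical of endothelium, had control levels of -2.42, -2.56, -0.85 and -0.77. Its differences with IL-1β were 0.016, -0.42, -0.33 and -0.022, close to 0 on the first and last slides and below it on the other two. The last was 0.13 after quantile normalization and 0.056 after normexp. The fit gave -0.19 ± 0.20 (SE; adjusted p = 0.579).

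ICAM3 is the ICAM best known from resting leukocytes, and its probe was well above background on all 12 arrays. Control levels were -0.10, -0.11, 0.18 and 0.51. IL-1β levels were -0.94, -0.70, 0.14 and 0.075, so each was below its own control but the groups overlapped. The fit gave -0.47 ± 0.17 (SE; adjusted p = 0.115).

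ALCAM, which binds CD6 on T cells, had control levels of 2.64, 2.70, 1.81 and 2.00. IL-1β levels were 2.35, 2.57, 1.31 and 1.42, each below its control by 0.12 to 0.58. The fit gave -0.38 ± 0.15 (SE; adjusted p = 0.151). In 2 other processings ALCAM passed, with -0.40 after normexp background correction and quantile normalization (adjusted p = 0.0482) and -0.48 in the authors' table (adjusted p = 0.0178).

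CD44, the hyaluronan receptor, rose with IL-1β by 3.59- to 4.24-fold on each slide where it was measured, from unequal starting levels. Control levels were 4.66, 5.03, 2.63 and 2.40. IL-1β levels were 6.74, 6.87 and 4.69 on the first 3 slides, and the differences of 2.08, 1.85 and 2.06 correspond to 4.24-, 3.59- and 4.17-fold. Although each of the 3 differences was close to 2 log2 units, control and IL-1β levels overlapped between slides. The HK-2 replicate 2 IL-1β spot was marked an outlier by the scanner software and left out, so the estimate of 2.07 ± 0.21 (SE; adjusted p = 0.00235) used 11 arrays. Like ICAM1, CD44 was selected by the study on these same arrays, so this rise is not independent of that choice. With outlier spots kept, that slide's level was 4.98 and the estimate 2.14 (adjusted p = 0.000796). CD44 stayed past the threshold with any 1 array left out (highest adjusted p = 0.0153) and with any 1 slide left out (highest adjusted p = 0.0287). Its probe lies at chr11:35253812-35253871 (hg19, plus strand), and an array probe of this kind does not separate the splice forms that share its bases.

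CD47 was higher with IL-1β than control on 4 of 4 slides, by unequal amounts. Control levels were 3.45, 3.58, 1.43 and 1.15, and IL-1β levels were 5.02, 5.02, 1.95 and 1.58. The differences of 1.57, 1.44, 0.52 and 0.43 correspond to 2.98-, 2.71-, 1.44- and 1.35-fold. The larger differences were on the same 2 slides as those of ICAM1, where control levels were high for CD47 but low for ICAM1. The fit gave 0.99 ± 0.35 (SE; adjusted p = 0.111). The CD47 probe is shown because its 60 bases span 1260 bases of genome (hg19, chr3:107778363-107779622, minus strand), so it reads spliced transcripts that join these segments.
CD47 probe: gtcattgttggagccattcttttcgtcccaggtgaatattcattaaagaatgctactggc

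The junction molecule F11R, which seals tight junctions and is also a ligand of LFA-1, had 2 probes. The brighter one (chr1:160966033-160966092, hg19, minus strand) had control levels of 3.32, 3.49, 3.89 and 3.58. Its IL-1β levels were 3.32, 3.60, 3.47 and 3.69, and the fit of -0.048 ± 0.20 (SE; adjusted p = 0.901) changed sign after another scaling. The second probe (chr1:160967950-160968009) was lower with IL-1β on 4 of 4 slides by 0.11 to 0.77, and the probes thus disagreed.

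CEACAM1, a homophilic molecule of epithelium and leukocytes, was dim. The probe tested (chr19:43011504-43011563, hg19, minus strand) gave 13.0 to 37.6 signal units and was well above background on 11 of 12 arrays, and the second probe on 1. Control levels were -3.41, -3.51, -4.11 and -4.35. Differences with IL-1β were -0.13, -1.19, -0.15 and -0.033 (fit -0.38 ± 0.23 SE; adjusted p = 0.340). The differences on the 2 HK-2 slides turned positive, to 0.11 and 0.38, after quantile normalization.

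L1CAM, a homophilic molecule better known from axons and the collecting duct, had 2 probes in separate parts of the transcript (chrX:153128196-153128255 and chrX:153137641-153137700, hg19, minus strand), both shown because each read lower than control on 4 of 4 slides with either treatment, the second with neither array well above background on the RPTEC/TERT1 replicate 1 slide.
L1CAM probe 1: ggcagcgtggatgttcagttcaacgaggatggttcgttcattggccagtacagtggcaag
L1CAM probe 2: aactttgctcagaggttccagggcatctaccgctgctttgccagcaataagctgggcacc
Control levels at the first were 0.18, 0.20, -0.38 and -0.42, and IL-1β levels were -0.083, -0.49, -1.32 and -1.99. The differences of -0.26, -0.69, -0.94 and -1.57 gave a fit of -0.87 ± 0.25 (SE; adjusted p = 0.0602). Each IL-1β array was below its own control, though levels overlapped between slides. The second probe, well above background on 9 arrays, was lower on 4 of 4 slides by 0.38 to 0.89. L1CAM passed without the HK-2 IL-1β array of replicate 1 (-1.08, adjusted p = 0.0422) and without the HK-2 Empa array of replicate 1 (-0.87, adjusted p = 0.0488). It also passed after normexp background correction with quantile normalization (-0.60, adjusted p = 0.0497), in the authors' table (-0.67, adjusted p = 0.0353) and with the same estimate where dim genes were filtered more strictly, on both arrays of a group (adjusted p = 0.0464) or on all 12 arrays (adjusted p = 0.0337).

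Counted together, 7 of 10 members had an unadjusted p under 0.05 with IL-1β, against 4815 of 18001 genes. Of the 9 members with a value on 4 slides, 2 (ICAM1 and CD47) were higher on all 4, where 14.1% of all genes were, and 4 (ICAM3, ALCAM, CEACAM1 and L1CAM) were lower on all 4, where 23.6% were. The median member estimate was -0.12, near the median of -0.11 over all genes tested. After quantile normalization that overall median was -0.022, so differences of this size are relative to the scaling.

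**Figure D3:**
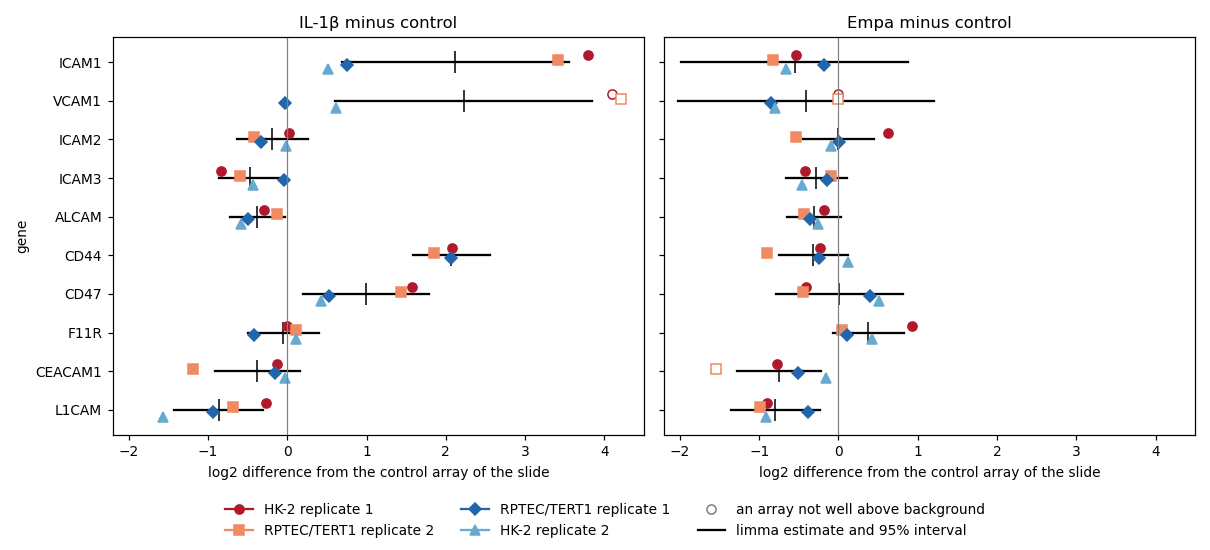
Log2 difference from the control array of the slide (horizontal axis) for each gene (vertical axis) with IL-1β (left) and Empa (right), 1 symbol per slide, open where an array was not well above background, with the limma estimate (tick) and its 95% interval (bar). With IL-1β, CD44 symbols cluster near 2 while ICAM1 symbols run from 0.52 to 3.80, and with Empa most symbols lie between -1 and 1.

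With Empa, 5 members (ICAM1, ICAM3, ALCAM, CEACAM1 and L1CAM) were lower than their own control on 4 of 4 slides, where 13.2% of all genes were, and 1 (F11R) was higher on 4 of 4, where 11.8% were. None passed the test, and 2 had an unadjusted p under 0.05, against 1978 of 18001 genes. The control arrays are shared with the IL-1β comparison, so a high or low control moves both differences of a slide together. The median member estimate was -0.31, with -0.023 over all genes.

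ICAM1 levels with Empa were -1.94, -2.01, 1.08 and 0.71, which differed from the slides' controls by -0.54, -0.82, -0.19 and -0.66. The 4 differences were closer together (SD 0.27) than those with IL-1β (SD 1.73). The fit gave -0.55 ± 0.63 (SE; adjusted p = 0.735), with an interval of -1.99 to 0.88. This SE and interval use 1 estimate of spread for both treatments, so they take in the spread of the IL-1β differences.

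L1CAM levels with Empa were -0.72, -0.79, -0.77 and -1.33, below the 4 controls by 0.39 to 0.99. All 4 Empa arrays lay below all 4 control arrays, but the share of all genes separated in this way was not counted. The fit gave -0.80 ± 0.25 (SE; adjusted p = 0.361). At the second probe the differences were -0.015, -0.88, -0.11 and -0.86, and the first of these became 0.082 after quantile normalization.

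CEACAM1 levels with Empa were -4.19, -5.05, -4.62 and -4.51, the second of which was not well above background. On that slide the Empa reading was 2.91-fold below control, a ratio to a signal not well above background that sets no bound. On the others the differences were -0.78, -0.51 and -0.16, the last of which became 0.053 after quantile normalization. The fit gave -0.75 ± 0.23 (SE; adjusted p = 0.361).

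CD47 divided the slides with Empa: differences were -0.41 and -0.44 on the HK-2 replicate 1 and RPTEC/TERT1 replicate 2 slides but 0.40 and 0.51 on the others, with a fit of 0.013 ± 0.35 (SE; adjusted p = 0.993). The brighter F11R probe was higher by 0.93, 0.048, 0.10 and 0.43 (fit 0.38 ± 0.20 SE; adjusted p = 0.502), whereas the second F11R probe was lower on 4 of 4 slides by 0.14 to 0.60. CD44 differences were -0.24, -0.91, -0.24 and 0.12, with a fit of -0.32 ± 0.19 (SE; adjusted p = 0.546). The last of these differences was -0.0081 with the values normalized by the authors. ICAM2 differences ran from -0.54 to 0.63 (fit -0.0016, adjusted p = 0.999), and those of ICAM3 from -0.46 to -0.095 (fit -0.28, adjusted p = 0.546). ALCAM differences ran from -0.44 to -0.18 (fit -0.31, adjusted p = 0.475).

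Between the labelled lines, 0 of 10 members and 0 of 18001 genes (0%) passed in limma for the difference in the IL-1β effect, the difference in the Empa effect or the difference in control level. Before adjustment, 303, 190 and 205 genes had p under 0.05. The lowest unadjusted p of any member was 0.264, 0.175 and 0.504 in these comparisons. For ICAM1 the IL-1β effect differed between labels by 0.075, with an interval of -3.36 to 3.51, and each label holds 1 slide with a large and 1 with a small ICAM1 difference. The labels and the array correlations disagree, so what a line label stands for on these arrays cannot be settled here.

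Other genes of adhesion were read from 4 lists, and with IL-1β 17 genes in them passed the test, 6 higher and 11 lower. With Empa 0 did in limma, against 0.00556% of all genes. Share for share, 3 of 18 counter-receptors and ligands of the members passed, as did 5 of 26 other immunoglobulin-superfamily and junction molecules, 4 of 12 selectins and selectin-ligand genes and 5 of 25 cytoplasmic linkers and sheddases, against 10.0% of all genes. The medians of the lists were 0.043, -0.029, -0.17 and -0.23, against -0.11 over all genes. Only 4 of the 17 calls (AMIGO2, BCAM, CADM4 and TJP3) held with each of the 12 arrays left out in turn, and the other 13 each missed the threshold without at least 1 array, of which the one that gave the highest adjusted p is named with each gene described below.

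Among ligands and counter-receptors, SPP1 (osteopontin, a ligand of CD44 and integrins) was higher by 1.12 on the log2 scale (adjusted p = 0.0179), and higher on 4 of 4 slides by 0.47 to 1.78. The mucin MUC1, a ligand of ICAM1, was lower by 1.21 (log2 difference -1.21, adjusted p = 0.0229), and ITGAX, the α chain of a leukocyte integrin, had -1.05 (adjusted p = 0.0418). Without the RPTEC/TERT1 control array of replicate 2 the SPP1 adjusted p was 0.0714, and without the HK-2 control array of replicate 1 that of MUC1 was 0.0891 and that of ITGAX 0.134. SIRPA, the receptor of CD47, had 0.63 (adjusted p = 0.274), and the leukocyte integrin chains ITGB2 and ITGA4 had -0.26 and 0.46 (adjusted p = 0.363 and 0.200). ITGAL, the α chain of LFA-1, and CD6, the receptor of ALCAM, were well above background on no array.

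Among the other immunoglobulin-superfamily and junction molecules, AMIGO2 was higher by 1.54 (adjusted p = 0.00231) and NRCAM, a neuronal relative of L1CAM, by 1.09 (adjusted p = 0.0226). BCAM, the laminin-binding Lutheran molecule, had -1.52 (adjusted p = 0.00194), and its 4 slide differences lay between -1.69 and -1.24. EPCAM, a homophilic epithelial molecule, had -0.98 (adjusted p = 0.0261), and CADM4 had -1.62 (adjusted p = 0.00453) but was well above background on 2 arrays only. Without the RPTEC/TERT1 IL-1β array of replicate 2 the adjusted p of NRCAM was 0.0840 and that of EPCAM 0.0948. Like ICAM1 and CD44, the genes AMIGO2, SPP1 and MMP14 of these lists were selected by the study on these arrays, so their directions are not independent evidence. ICAM4, picked out after its values were seen, was well above background only on the IL-1β arrays of the HK-2 replicate 1 and RPTEC/TERT1 replicate 2 slides (levels -2.84 and -2.87), and did not pass (adjusted p = 0.248).

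Among selectin-ligand enzymes, the sulfotransferase CHST2 was higher by 2.18 (adjusted p = 0.0371; well above background on 8 arrays) and the fucosyltransferase FUT4 by 1.19 (adjusted p = 0.0372). GCNT1, which builds core 2 O-glycans, had -1.77 (adjusted p = 0.0151), and the sialyltransferase ST3GAL6 had -1.05 (adjusted p = 0.0127). Without the HK-2 control array of replicate 1 the adjusted p of CHST2 was 0.129 and that of FUT4 0.127. Without the RPTEC/TERT1 control array of replicate 2 that of GCNT1 was 0.0622, and without the RPTEC/TERT1 IL-1β array of replicate 2 that of ST3GAL6 was 0.0541. SELE (E-selectin) was detected on no array.

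Among linkers and sheddases, the membrane-type protease MMP14, which can cleave CD44, was higher by 0.79 (adjusted p = 0.0383). Ankyrin ANK3, which anchors L1-family molecules, had -2.89 (adjusted p = 0.0404) and was detected on 6 arrays. The junction scaffold TJP3, detected by any probe on 9 arrays, had -1.33 (adjusted p = 0.00644) and the actin cross-linker ACTN4 -0.81 (adjusted p = 0.0402). Without the RPTEC/TERT1 control array of replicate 2 the adjusted p of MMP14 was 0.114 and that of ANK3 0.132, and without the RPTEC/TERT1 IL-1β array of replicate 2 that of ACTN4 was 0.140. The sheddases ADAM10 and ADAM17, which release several members from the cell surface, had 0.20 and 0.022 (adjusted p = 0.543 and 0.968).

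**Figure D4:**
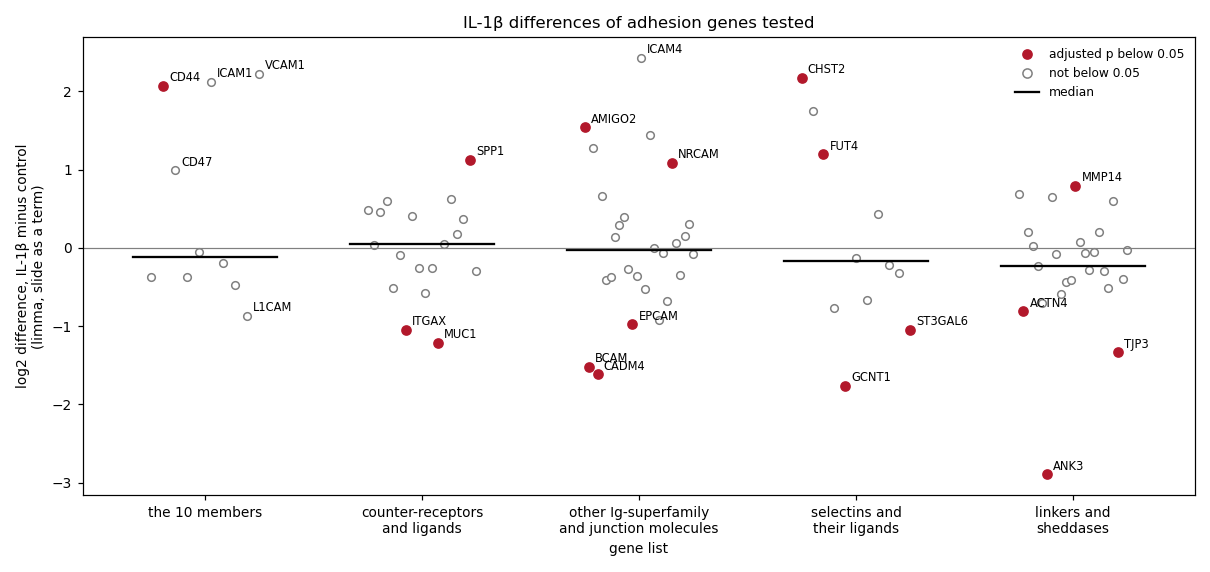
Limma estimate of the IL-1β minus control log2 difference (vertical axis) for tested genes of the 5 lists (horizontal axis, genes in alphabetical order within a list; 2 genes not reported here are in the medians but have no point), filled where the adjusted p was below 0.05, with a bar at each median. CD44 is the filled member, and filled genes of the other 4 lists lie on both sides of 0, from -2.89 (ANK3) to 2.18 (CHST2).

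Likeness to ICAM1 and VCAM1 was measured by Pearson's r over the 8 within-slide differences (IL-1β and Empa on 4 slides) among 12532 genes well above background on all arrays. Nearest to ICAM1 were IL4I1 (r = 0.998), SRC (0.998), STT3A (0.994), S100A3 (0.994) and DDX39A (0.993). IL4I1 differences with IL-1β were 7.81, 7.41, 1.51 and 1.16, so this gene shared the order of ICAM1 at larger size, while SRC differences were 1.25, 1.20, 0.20 and 0.041. IL4I1, SRC, STT3A and S100A3 were also in the study's selection. Nearest to VCAM1 were BIRC3 (0.997), DUSP5P1 (0.997), NGEF (0.995), C1R (0.992) and RHBDF2 (0.991), with 4 of the 8 VCAM1 differences resting on undetected arrays. The 8 points share 4 control arrays, and these are descriptions of highest ranks among many genes.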

How the data were processed

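Per the file headers, the 12 deposited scanner files were written by Feature Extraction 9.5.3.1 (1 colour, annotation hg19) and give an intensity per spot after background subtraction by the authors' software. The authors' log2 table (44473 rows), quantile-normalized as its name says and with arrays of 1 slide sharing a distribution, was an alternative. Levels were not compared across slides in it, other than in the contrast between line labels. Control spots and outlier spots were left out. Spot signals of a probe were averaged, and the averages were scaled so that the 75th percentile of each array was 419 units. Scaled values were floored at 1 unit and put on the log2 scale relative to 419 units. Probes needed a value on at least 11 of 12 arrays and the software's well-above-background mark on at least 2. The probe with the highest mean stood for a gene. Between genes, levels depend on probe and were not ranked. limma 3.58.1 in R 4.3.3 fitted slide and treatment (6 residual degrees of freedom), or slide and line by treatment (4). Each gene had 1 estimate of spread shared by both treatments, so its SE with Empa takes in its spread with IL-1β. On a slide, deviations from group means correlated at 0.701 to 0.893, and the slide was kept as a block. With 2 arrays per group, the deviations of 1 array mirror those of the other. Arrays of 1 line label also differed widely, so these values cannot show whether replicate numbers pair arrays. Simulation with 200 changed genes among 18001 recovered 27% of changes of 1 log2 unit and 86% of changes of 2 in the IL-1β comparison, with 10 false calls. The number of arrays limits the precision. Slides of a replicate number were scanned on 1 day. The named genes were the 10 members, in each adhesion list the up to 5 called genes with the largest IL-1β change, and the 5 genes most like ICAM1 and VCAM1. Members and lists were chosen with earlier results of these data known. Line labels come from sample titles, while the source field names HK-2 for all 12 arrays. Promoters are from RefSeq. Values of 2 genes of the adhesion lists are not reported here, although both are in the counts and medians of their lists.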

Additional observations from a re-analysis of the deposited data

Results flagged for a closer look

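Within-slide differences were examined in 19 sets of 4 slides for a value standing apart from the other 3 by Dixon's ratio (95% critical value), and 2 sets had one, where chance gives about 1 in 20. The IL-1β minus control difference of CEACAM1 was -1.19 on the RPTEC/TERT1 replicate 2 slide and between -0.15 and -0.033 on the other 3, from a probe of at most 37.6 signal units. The Empa minus control difference of L1CAM was -0.39 on the RPTEC/TERT1 replicate 1 slide and between -0.99 and -0.90 on the other 3.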

How the results depend on the processing

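The number of genes past the threshold with IL-1β (1806) was 4 with no replicate block (no slide term), 1526 with the slide as a random block, 791 without the slide of HK-2 replicate 1, 494 without HK-2 replicate 2, 831 without RPTEC/TERT1 replicate 1, 331 without RPTEC/TERT1 replicate 2, 649 to 2714 with each array left out in turn, and 0 for replicate number 1 alone, replicate number 2 alone, HK-2 alone and RPTEC/TERT1 alone. Members past it with IL-1β (1) were 0 with no replicate block, 0 in those 4 subsets, 0 where a value was required on all 12 arrays (added after seeing the data, and without CD44), 3 after normexp, 3 in the authors' table, and 1 to 3 with each array left out. They were 2 (ICAM1 and L1CAM) where all 12 arrays had to be well above background, a setting also without CD44. They were 2 (CD44 and L1CAM) where both arrays of a group had to be. CD44 had 2.58 (adjusted p = 0.704) with no replicate block and adjusted p of 0.250 to 0.352 in the 4 subsets. With Empa, the 1 gene past the threshold was 0 under no replicate block, a random block, normexp, the authors' table, a floor of 5 units, no filter, detection on all 12 arrays, every probe tested, each slide left out and each subset, and 0 to 2 with each array left out, while members stayed at 0. The control difference between line labels had 5 genes with no filter on dim probes. Calls higher with IL-1β were 35.3% of all calls, 47.0% after quantile normalization, 50.8% after normexp and 46.3% with the percentile taken over probes (added after seeing the data).

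Of the members' estimates, 4 changed sign. ICAM2 with Empa (-0.0016) was 0.076 after quantile normalization, 0.038 after normexp, 0.041 with the percentile over probes, 0.031 without the HK-2 replicate 2 slide, 0.18 without the RPTEC/TERT1 replicate 2 slide, 0.32 in replicate number 1 alone and 0.26 in HK-2 alone, and -0.18 to 0.14 with each array left out. CD47 with Empa (0.013) was -0.15 without the HK-2 replicate 2 slide, -0.12 without the RPTEC/TERT1 replicate 1 slide, -0.0050 in replicate number 1 alone, -0.024 in RPTEC/TERT1 alone, and -0.25 to 0.25 with each array left out. F11R with IL-1β (-0.048) was 0.039 with the percentile over probes, 0.076 without the RPTEC/TERT1 replicate 1 slide, 0.11 in replicate number 2 alone, 0.058 in HK-2 alone, and -0.16 to 0.059 with each array left out. VCAM1 with Empa (-0.41) was -0.81 to 0.037 with each array left out. The cause was not tested. VCAM1 on 6 arrays and CEACAM1 on 1 were not well above background, and their differences there are limited by signal.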
